A study of Mus musculus with 6 samples.

Results

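Glutathione genes were read out in the transcriptome of neural stem cells (NSCs) from embryos with a conditional deletion of miR-151. The set comprised the genes of the glutathione transferases and glutathione peroxidases, the enzymes that make and recycle glutathione, the cystine transporter subunit *Slc7a11*, and the transcription factor gene *Nfe2l2* with the stress genes *Nqo1* and *Hmox1*. Membership was decided by gene symbol alone, and 42 of the 32493 genes in the count table matched, among them the processed pseudogene *Gstm2-ps1*. Embryos on a C57BL/6J background were taken at E14.5, and NSCs dissected at their lateral ventricles were cultured for 3 generations. In cko embryos both miR-151 alleles were floxed and combined with Emx1-IRES-Cre, a Cre of the dorsal telencephalon. Their ctrl littermates had the same floxed alleles without Cre. GEO's labels name the ctrl genotype wt, and miR-151 itself is not a gene of the count table used here, so the deletion could not be checked. The share of cells that had expressed Cre in each cko culture was not analysed here. The comparison asked which genes differ between the genotypes in cultured NSCs.

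Glutathione is a small thiol peptide that cells build from cysteine, glutamate and glycine. Cystine enters through the antiporter xCT, glutamate-cysteine ligase joins the first pair of amino acids, and glutathione synthetase adds the last. Glutathione peroxidases spend glutathione to reduce hydrogen peroxide and lipid hydroperoxides, glutathione reductase regenerates it, and glutathione transferases couple it to reactive electrophiles. Many of these genes are known targets of NRF2, the factor encoded by *Nfe2l2*, which binds antioxidant response elements. In the brain, glutathione supply and the mu class transferases are best known from astrocytes.

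Of the 6 deposited columns, the one for ctrl replicate 2 was, gene by gene, the average of ctrl replicates 1 and 3 rounded up (32493 of 32493 genes) and was left out, so that 3 cko libraries were compared with 2 ctrl libraries. Total counts lay between 17883796 and 23335736, and 3 counts, taken as the smallest level that this depth can show, corresponded to 0.129 to 0.168 counts per 1000000 of the library (CPM). Counting error alone is covered by this limit. Nothing in the labels says that the libraries came from separate embryos, so the p-values measure only the spread between these libraries. The ctrl libraries differed by more than 2-fold in 544 of 14347 genes, against 40 to 99 genes between pairs of cko libraries. Of 5 genes that report the sex chromosomes, *Xist* was called lower and all 4 Y-linked genes were called higher in cko NSCs. Both *Xist* (2889 and 2557 CPM in ctrl, 787 to 894 CPM in cko NSCs) and the 4 Y-linked genes were measured in every library. Sex and genotype can therefore not be told apart in this comparison. No member gene lies on the X or Y chromosome, and a part of sex in the member values was not tested. *Sox2*, which marks NSCs, was present at 556 to 626 CPM in every library.

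The promoters were searched for the core of the antioxidant response element, since several members are known NRF2 targets. The letters searched were TGACNNNGC on both strands, within windows from 250 bases before to 50 bases after the annotated start (RefSeq, GRCm38.p6). Windows were given for 36 of the 42 members, and 6 of these (16.7%) held the motif in a window, against 14.0% of all 27025 genes with a window. Per window the shares were 12.2% and 12.4%. The 30 bases around each match are shown because they place members that were called and members that were not called side by side. Capitals mark the motif on the strand printed.
Gclm, chr3:122245413-122245442, minus strand: ctcgtgagagtTGACGGTGCgcccgggagc
Mgst1, chr6:138140461-138140490, minus strand: accccgcctccTGACCGTGCcaagccccgc
Nfe2l2, chr2:75704884-75704913, minus strand: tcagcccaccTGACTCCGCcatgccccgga
Gsta3, chr1:21240454-21240483, plus strand: aactcaggcaTGACATTGCatttttcttct
Gstm5, chr3:107895802-107895831, plus strand: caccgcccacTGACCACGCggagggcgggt
Gstm7, chr3:107931724-107931753, minus strand: tctgaagaccTGACAAAGCgaagccaatcc
The first 3 genes were lower in cko NSCs and the last 3 were not called. The motif centre lay 38 bases before the start site in *Gstm5*, 52 in *Mgst1*, 117 in *Gsta3*, 125 in *Gstm7*, 130 in *Gclm* and 236 in *Nfe2l2*. A match describes letters in a short window and was not tested as a binding site.

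Of the 42 members, 31 had enough counts to be tested. In cko NSCs 11 of them were lower and 1 was higher by edgeR's quasi-likelihood test, with an adjusted p (Benjamini-Hochberg, over 16710 genes) under 0.05. The lower members made up 35.5% of those tested, beside 8.57% of all tested genes, and the higher member made up 3.23%, beside 7.86%. The lower genes were *Gstm1*, *Gstm2-ps1*, *Gstm6*, *Gsta4*, *Gstt3*, *Mgst1*, *Slc7a11*, *Gclc*, *Gclm*, *Gpx8* and *Nfe2l2*, and the higher gene was *Nqo1*. The median log2 fold change was -0.19 over the tested members and -0.0026 over all tested genes. At the study's own threshold, a log2 fold change beyond 0.9 with an unadjusted p under 0.01, 9 members were called, which is 29.0% beside 6.55% of all tested genes. All 3 cko libraries lay below both ctrl libraries in 15 members (48.4%, beside 24.3% of all tested genes) and above both in 3 members (9.68%, beside 25.4%). One tested member, *Gstt3*, reached the filter's level in the ctrl libraries only and so could enter the test only through the group where it was high. Without it, 10 of 30 tested members (33.3%) were lower. The median, the count at the study's threshold and the count of separate libraries given above still include *Gstt3*.

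**Figure D1:**
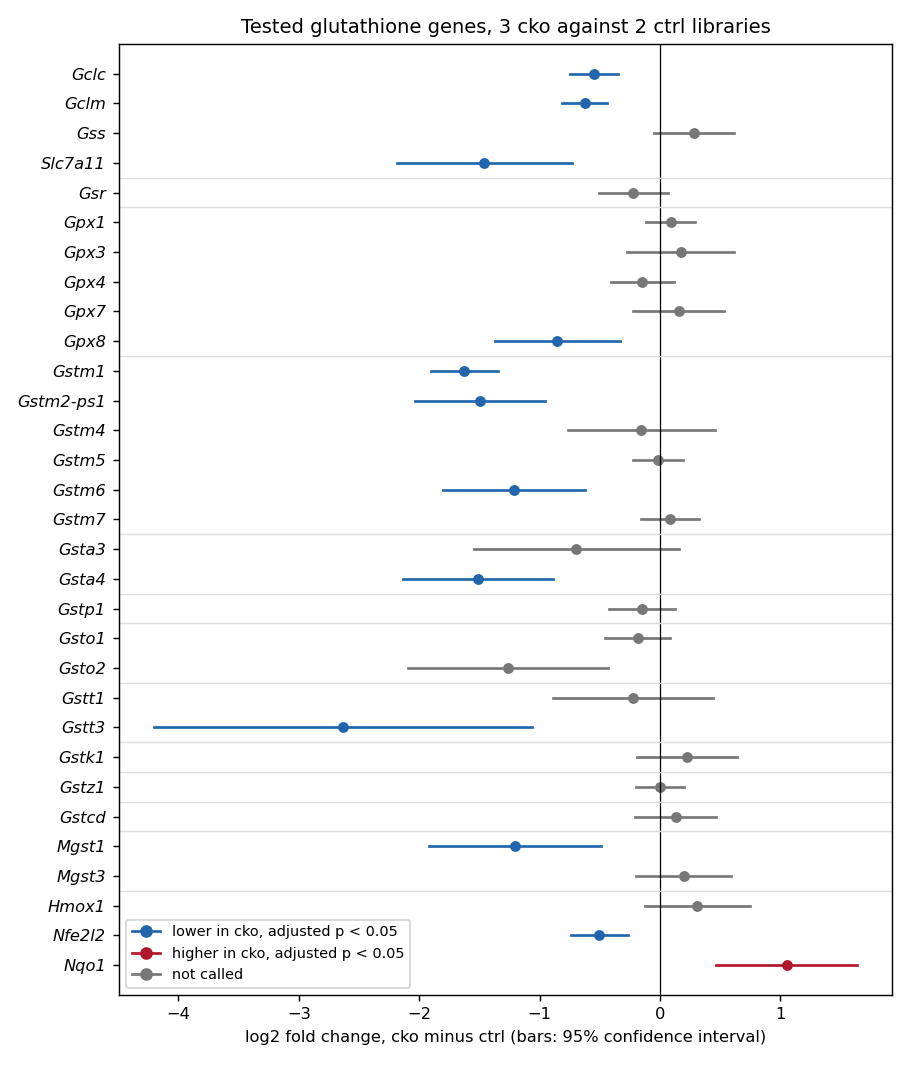
Log2 fold change of the 31 tested glutathione genes (x axis, cko minus ctrl, from 2 ctrl and 3 cko libraries), grouped by role, with 95% confidence intervals as bars. Blue marks the 11 lower genes and red the higher gene *Nqo1* (edgeR, adjusted p under 0.05), and the 19 genes in grey were not called.

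Only 3 of the 12 called genes (*Gclm*, *Gstm1* and *Gstm2-ps1*) kept their call in each of the 11 alternatives run (10 for *Gstt3*, which at least 10 counts in every library removed). *Gclc* lost it without cko library 2. Without cko library 2, 3 members were called lower and none higher, and without cko library 3 the counts were 4 and 0. In both cases 2 libraries were left in each group. The same held without cko library 1, where 11 members were lower and 1 was higher. The shares of all genes called in these runs were not counted. A loss of calls in the members can therefore not be told apart from a loss over all genes. No called gene changed direction.

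Transcripts for cystine uptake and for the first ligase were lower in cko NSCs, while those of glutathione synthetase and reductase were not called. *Slc7a11* (ENSMUSG00000027737, chromosome 3, 49892526 to 50443614 in GRCm38), which encodes the xCT transport subunit, was measured at 35.5 and 58.5 CPM in ctrl and at 25.0, 13.0 and 13.6 CPM in cko NSCs. The groups did not overlap, but the ctrl libraries differed from each other 1.65-fold. The log2 fold change was -1.46 (standard error, SE, 0.31, edgeR adjusted p = 0.0216), and it was -1.05 without ctrl library 3. Without cko library 2 or 3 it was no longer called. *Gclc* (ENSMUSG00000032350, chromosome 9, 77754535 to 77794485), the catalytic subunit of glutamate-cysteine ligase, stood at 75.6 and 75.4 CPM in ctrl and at 48.6, 50.2 and 56.1 CPM in cko NSCs. Both ctrl values were above the highest cko value, and the log2 fold change was -0.55 (SE 0.086, edgeR adjusted p = 0.0076). *Gclm* (ENSMUSG00000028124, chromosome 3, 122245557 to 122270732), the modifier subunit of the same ligase, fell from 53.9 and 54.5 CPM to 36.6, 33.6 and 35.3 CPM. This gave a log2 fold change of -0.63 (SE 0.08, edgeR adjusted p = 0.00403), close to that of its partner subunit, and the 95% confidence intervals of both were below 0. Exons of *Gclm* overlap those of *Gm6061* and *Gm17494*, so some of its reads are uncertain. Glutathione synthetase, *Gss*, was measured at 15.4 and 19.7 CPM in ctrl and at 20.4, 20.5 and 23.2 CPM in cko NSCs. Its cko values were all the higher ones, yet the difference did not pass the test (log2 fold change 0.28, 95% confidence interval -0.049 to 0.62, edgeR adjusted p = 0.213), and its exons overlap those of *Acss2* and of 2 antisense genes. Without ctrl library 3, *Gss* was called higher (log2 fold change 0.48, edgeR adjusted p = 0.0415). Within each library, the ratio of *Gclc* to *Gss* counts was 4.90 and 3.82 in ctrl and 2.38, 2.44 and 2.42 in cko NSCs. This ratio does not depend on scaling between libraries. Its groups did not overlap (exact permutation test, two-sided p = 0.2, the smallest that 2 against 3 libraries allow). That separation follows from the values of both genes given above and is no further evidence. Glutathione reductase, *Gsr*, recycles the oxidized form and was not called, at 38.7 and 49.8 CPM in ctrl and 35.1 to 39.8 CPM in cko NSCs (log2 fold change -0.22, 95% confidence interval -0.51 to 0.068). Without ctrl library 1, *Gsr* passed the threshold with a log2 fold change of -0.40, and without ctrl library 3 it was at -0.025.

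Among the 8 glutathione peroxidase genes 5 were tested, and only *Gpx8* was lower at the threshold. *Gpx8* (ENSMUSG00000021760, chromosome 13, 113042753 to 113046410) encodes a membrane-bound peroxidase of the endoplasmic reticulum. It was measured at 15.1 and 14.1 CPM in ctrl and at 10.6, 7.46 and 6.30 CPM in cko NSCs. The log2 fold change was -0.85 (SE 0.22, edgeR adjusted p = 0.0398). The groups were separate, but the call was lost without ctrl library 1 or without cko library 2 or 3. *Gpx4*, which reduces lipid hydroperoxides in membranes and thereby limits ferroptosis, was measured at 129 and 106 CPM in ctrl and at 116, 105 and 97.4 CPM in cko NSCs. Its groups overlapped, and the 95% confidence interval of the log2 fold change was -0.41 to 0.11. Its value carries a further limit, since 61.7% of the 50-base windows of its longest transcript also occur in the pseudogene *Gpx4-ps2*. The cytosolic peroxidase gene *Gpx1* stood at 72.4 and 64.3 CPM in ctrl and at 77.0, 71.1 and 70.4 CPM in cko NSCs. Its log2 fold change of 0.09 had a 95% confidence interval of -0.11 to 0.29, and the groups overlapped. *Gpx3*, the secreted form, and *Gpx7*, a second peroxidase of the endoplasmic reticulum, had log2 fold changes of 0.17 and 0.15. Both turned negative without ctrl library 1 (-0.13 and -0.044), and without ctrl library 3 *Gpx3* was called higher (0.53, edgeR adjusted p = 0.0318). In the 2 ctrl libraries *Gpx3* was at 15.7 and 24.4 CPM and *Gpx7* at 9.17 and 12.1 CPM. *Gpx2* and *Gpx6* had 0 counts in all 5 libraries, and *Gpx5* had at most 3.

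The mu class held the member with the highest level and one of the largest changes. *Gstm1* (ENSMUSG00000058135, chromosome 3, 108012255 to 108017973), a cytosolic transferase typical of astrocytes in the brain, was measured at 391 and 441 CPM in ctrl NSCs, whereas the cko libraries held 155, 120 and 129 CPM. The mean fell from 416 ± 35.2 CPM (SD, n = 2) to 135 ± 18.3 CPM (SD, n = 3), a log2 fold change of -1.63 (SE 0.12, edgeR adjusted p = 0.000954). Every ctrl value was more than 2-fold above every cko value. Over the 11 alternatives its log2 fold change lay between -1.75 and -1.53, and the adjusted p was at most 0.0133. *Gstm6* (ENSMUSG00000068762) was far less abundant, at 5.68 and 4.48 CPM in ctrl and at 2.57, 2.27 and 1.75 CPM in cko NSCs (log2 fold change -1.21, SE 0.25, edgeR adjusted p = 0.0195). It was no longer called without cko library 2 or 3. The pseudogene *Gstm2-ps1*, on chromosome 5 and so outside the cluster, had a log2 fold change of -1.49 (edgeR adjusted p = 0.00717), with 140 and 100 counts in ctrl and 43, 46 and 38 counts in cko NSCs. It shares 35.4% of its 50-base windows with *Gstm1* transcripts, and its counts amounted to 1.56% and 1.21% of the *Gstm1* counts in ctrl and to 1.55%, 1.64% and 1.36% in cko NSCs. These shares overlapped between genotypes (exact permutation test, two-sided p = 0.6), and how many of its reads came from *Gstm1* was not tested. Conversely, 23.1% of the windows of *Gstm1* occur in other genes.

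The other tested mu genes were not called. *Gstm5* (ENSMUSG00000004032, chromosome 3, 107895821 to 107898686), second in the class by level, was measured at 76.4 and 72.9 CPM in ctrl and at 79.3, 73.9 and 67.8 CPM in cko NSCs. The groups overlapped, and the log2 fold change of -0.02 had a 95% confidence interval of -0.23 to 0.19. Exons of *Gstm5* overlap those of *4933431E20Rik* on the other strand, so some of its reads are uncertain. *Gstm7* ranged from 27.3 to 32.2 CPM over all 5 libraries (log2 fold change 0.08, 95% confidence interval -0.16 to 0.32), and *Gstm4* from 1.76 to 2.36 CPM (-0.16, -0.77 to 0.45). The 7 mu genes of chromosome 3 lie within 149 kb, in the order *Gstm5*, *Gstm7*, *Gstm6*, *Gstm3*, *Gstm2*, *Gstm1* and *Gstm4*, so that each lower gene had a neighbour that was not called. In counts of the same library, *Gstm1* exceeded *Gstm5* 5.13-fold and 6.05-fold in ctrl and 1.96-fold, 1.63-fold and 1.90-fold in cko NSCs. The ratio did not overlap between genotypes (exact permutation test, two-sided p = 0.2, the smallest possible). With *Gstm5* nearly level, this separation follows from the *Gstm1* values and is no further evidence. *Gstm2*, removed by the filter on low counts and named after its counts were seen, had 3 and 13 counts in ctrl and 0, 1 and 0 in cko NSCs. Most of its ctrl counts came from library 3, and no fold is given. *Gstm3* had at most 1 count.

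**Figure D2:**
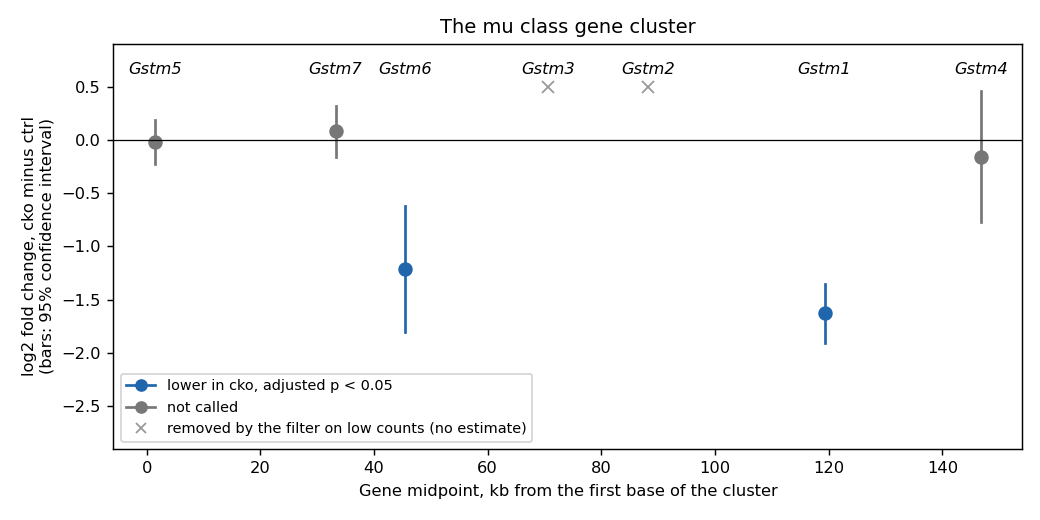
Log2 fold change of the mu class genes (y axis, cko minus ctrl, with 95% confidence intervals as bars) against the midpoint of each gene in kb from the first base of the cluster. *Gstm6* and *Gstm1* lay below 0 and were called by edgeR, the intervals of *Gstm5*, *Gstm7* and *Gstm4* held 0, and *Gstm3* and *Gstm2* were not tested.

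The alpha, theta and omega classes also held lower estimates, those of *Gsta3*, *Gstt3* and *Gsto2* from few reads. *Gsta4* (ENSMUSG00000032348, chromosome 9, 78182774 to 78209349) encodes the transferase with a preference for 4-hydroxynonenal, a product of lipid peroxidation. It was measured at 13.4 and 10.03 CPM in ctrl and at 5.65, 3.34 and 3.45 CPM in cko NSCs, with no overlap (log2 fold change -1.51, SE 0.27, edgeR adjusted p = 0.0111). Its call was lost without cko library 2 or 3. *Gsta3* was not called at 0.772 to 1.81 CPM (log2 fold change -0.69, edgeR adjusted p = 0.231). *Gsta1* and *Gsta2* had at most 2 counts and share 89.7% and 64.2% of their 50-base windows with other genes. The theta gene *Gstt3* had 19 and 39 counts in ctrl and 8, 4 and 2 in cko NSCs, or 0.830 and 2.08 against 0.448, 0.171 and 0.0919 CPM. *Gstt3* entered the test only through the ctrl libraries, where it was high, so its call is no evidence of a difference. Its log2 fold change was -2.64 (SE 0.67, edgeR adjusted p = 0.0375), a fitted value and not a bound, since cko library 3 lay under the limit of 3 counts. It was -1.84 without ctrl library 3 and -3.39 without cko library 1. The call was lost without ctrl library 3, without cko library 2 or 3 and with the replicate number as a block. Part of its exons overlap *Gm20441*. The neighbouring *Gstt1* ranged from 15.4 to 28.2 CPM in ctrl and from 15.6 to 24.2 CPM in cko NSCs and was not called (log2 fold change -0.22, 95% confidence interval -0.89 to 0.44). *Gstt2* had between 3 and 11 counts and was not tested. *Gsto2* had a log2 fold change of -1.26 and missed the threshold (edgeR adjusted p = 0.0513), while *Gsto1*, the adjacent and far more abundant omega gene, was at -0.19 (95% confidence interval -0.45 to 0.08).

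The remaining cytosolic and mitochondrial transferases were not called. *Gstp1*, the pi class gene that is well known from oligodendrocytes, was measured at 44.2 and 52.6 CPM in ctrl and at 39.8, 48.2 and 42.6 CPM in cko NSCs. The groups overlapped (log2 fold change -0.15, 95% confidence interval -0.42 to 0.12), and 62.3% of its 50-base windows also occur in *Gstp2*, so that reads of the pair are hard to assign. *Gstp2* and *Gstp3* had at most 3 and 4 counts. The zeta gene *Gstz1*, which works in the breakdown of tyrosine, was at 45.8 and 40.9 CPM in ctrl and at 44.1, 43.3 and 42.8 CPM in cko NSCs. Its log2 fold change was 0.002 (95% confidence interval -0.2 to 0.2), with a sign that turned under other scalings. Exons of *Gstz1* overlap those of *Gm6566* and *Pomt2* on the other strand. The mitochondrial *Gstk1* and the gene *Gstcd*, whose product has a transferase-like C-terminal domain, had log2 fold changes of 0.22 and 0.13. Of these, *Gstcd* shares exons with *Ints12* on the other strand and was at -0.092 without ctrl library 1.

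Membrane-bound transferases of the MAPEG family held 1 lower gene among 2 tested. *Mgst1* (ENSMUSG00000008540, chromosome 6, 138140316 to 138156755), which has both transferase and peroxidase activity, was measured at 73.3 and 38.1 CPM in ctrl and at 32.7, 21.3 and 18.8 CPM in cko NSCs. The lower ctrl library lay just above the highest cko library. The log2 fold change was -1.21 (SE 0.31, edgeR adjusted p = 0.0369), and without ctrl library 1 it was -0.67 and no longer called (edgeR adjusted p = 0.0917). The call was also lost without cko library 2 or 3. *Mgst3* was at 6.99 and 8.003 CPM in ctrl and at 9.51, 8.06 and 8.18 CPM in cko NSCs, narrowly separate and not called (log2 fold change 0.20, 95% confidence interval -0.20 to 0.59). *Mgst2* had at most 2 counts.

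The transcription factor gene *Nfe2l2* was called lower, *Nqo1* was called higher and *Hmox1* was not called. These stress genes are only part of the known NRF2 targets among the members. *Slc7a11*, *Gclc* and *Gclm*, given above, were called lower. *Nfe2l2* (ENSMUSG00000015839, chromosome 2, 75675513 to 75704641) was measured at 90.9 and 81.5 CPM in ctrl and at 67.4, 56.2 and 58.6 CPM in cko NSCs, which were all lower (log2 fold change -0.51, SE 0.10, edgeR adjusted p = 0.0175). The call was lost without cko library 2 or 3. *Nqo1* (ENSMUSG00000003849, chromosome 8, 107388225 to 107403206), a quinone reductase widely used as a readout of NRF2, was the only member called higher and rose from 2.18 and 1.81 CPM to 3.53, 4.16 and 4.78 CPM. Its log2 fold change was 1.05 (SE 0.25, edgeR adjusted p = 0.0306), with 34 to 104 counts in a library. The call was lost without ctrl library 3, without cko library 2 or 3 and with the replicate number as a block. *Hmox1*, the heme-degrading enzyme that NRF2 and BACH1 control, was at 19.6 and 31.7 CPM in ctrl and at 31.3 to 32.1 CPM in cko NSCs. It was not called (log2 fold change 0.31, 95% confidence interval -0.13 to 0.75), was at -0.011 without ctrl library 1 and passed the threshold at 0.70 without ctrl library 3. *Keap1*, which encodes the adaptor that marks NRF2 for degradation, is no member and was measured at 60.3 to 68.3 CPM over the 5 libraries (log2 fold change 0.07, edgeR adjusted p = 0.608).

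**Figure D3:**
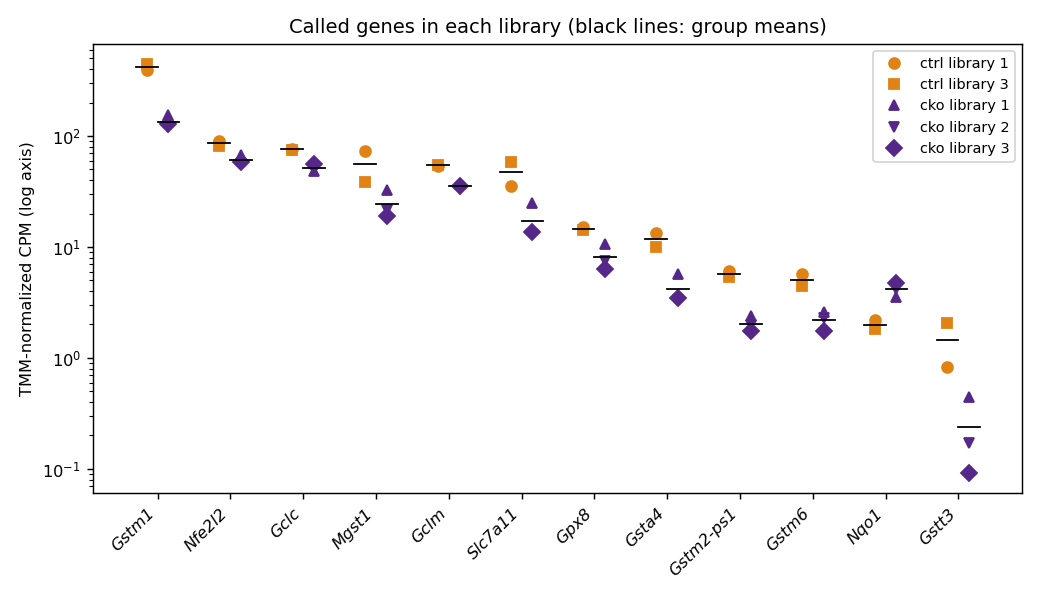
TMM-normalized CPM (log axis) of the 12 called genes in each of the 2 ctrl libraries (orange) and the 3 cko libraries (purple), with group means as black lines. In 11 genes every cko value lay below both ctrl values, and in *Nqo1* every cko value lay above them. The ctrl points of *Mgst1*, *Slc7a11* and *Gstt3* are the farthest apart.

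Scaled to exon length, *Gstm1* had the highest level of the tested members in both genotypes, with 283 CPM per kb in ctrl and 91.5 CPM per kb in cko NSCs. The next levels per kb belonged to *Gpx4* (68.0 in ctrl and 61.4 in cko NSCs), *Gstm5* (58.4 and 57.7), *Gpx1* (47.5 and 50.5) and *Gstp1* (31.3 and 28.1), and these 5 genes kept this order in cko NSCs. *Mgst1* went from rank 6 of 31 in ctrl, at 27.7 CPM per kb, to rank 14 in cko NSCs, at 12.1 CPM per kb. Relative to the library totals, without TMM factors, the 42 members took 1356 and 1380 CPM in ctrl and 1000.1, 903 and 894 CPM in cko NSCs. *Gstm1* alone made up 29.0% and 31.6% of the member counts in ctrl and 15.5%, 13.3% and 14.4% in cko NSCs. Without *Gstm1* the sum was 962 and 943 against 845, 782 and 765 CPM, still with no overlap (exact permutation test, two-sided p = 0.2, the smallest possible). This sum still holds the other members called lower, whose values are given above, so its separation is no further evidence.

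**Figure D4:**
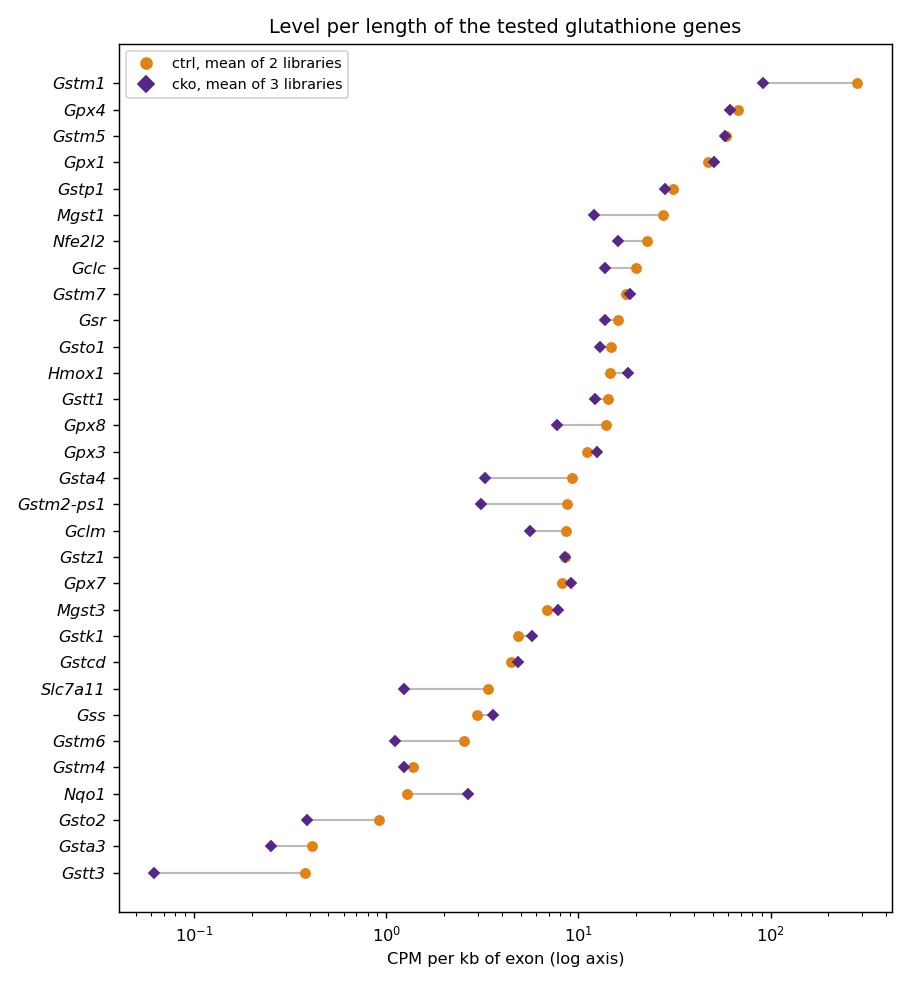
Mean level of the 31 tested glutathione genes in ctrl (orange circles, 2 libraries) and cko NSCs (purple diamonds, 3 libraries), in CPM per kb of exon on a log axis, ordered by the ctrl level. *Gstm1* stands at the top with 283 and 91.5 CPM per kb, and *Gpx4*, *Gstm5*, *Gpx1* and *Gstp1* follow with both symbols close together.

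A list of 68 further antioxidant genes, covering NRF2 partners, thioredoxins, peroxiredoxins, glutathione breakdown and export, NADPH supply and selenoprotein synthesis, gave 8 lower and 4 higher genes among 61 tested (edgeR, adjusted p under 0.05). These shares were 13.1% lower, beside 8.57% of all tested genes, and 6.56% higher, beside 7.86%. Its median log2 fold change was -0.11, beside -0.0026 over all tested genes. *Slc3a2*, the heavy chain that carries xCT to the membrane and also serves other amino acid transporters, was measured at 147 and 271 CPM in ctrl and at 106, 109 and 101 CPM in cko NSCs (log2 fold change -0.99, edgeR adjusted p = 0.0236). The call of *Slc3a2* was lost without cko library 1, 2 or 3, and its log2 fold change was -0.48 without ctrl library 3. *Ggct*, an enzyme of glutathione breakdown that releases 5-oxoproline, had the largest decrease of the called genes on the list, from 5.77 and 6.08 to 2.24, 1.97 and 2.44 CPM (log2 fold change -1.42, edgeR adjusted p = 0.0062). The export pumps *Abcc4* and *Abcc1* had log2 fold changes of -1.01 and -0.92, sulfiredoxin *Srxn1* of -0.90, and *Me1*, the cytosolic malic enzyme that makes NADPH, of -0.93. *Abcc1* lost its call without cko library 1, 2 or 3, and *Me1* without cko library 2 or 3. The 4 higher genes were *Clic1* (0.51), whose protein has the fold of a glutathione transferase, the NADPH enzyme *Idh1* (0.45), the transaldolase *Taldo1* (0.41) and the thioredoxin reductase *Txnrd1* (0.34). Without cko library 2 the list held 3 lower and no higher genes. With all 6 columns, where the averaged ctrl column counts as a library, it held 16 and 12.

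Lists of cell type markers moved between the same libraries, and their part in the results above was not tested. By the same test, 8.57% of all tested genes were lower and 7.86% were higher in cko NSCs. Of the 16 astrocyte markers 11 were lower and none was higher. Their summed level was 10691 and 9690 CPM in ctrl against 4364 to 6715 in cko NSCs. *Gfap* stood at 1008 CPM in ctrl library 1, at 178 CPM in ctrl library 3 and at 298, 86.7 and 122 CPM in cko NSCs. Its groups overlapped, and it was not called. Of 16 tested oligodendrocyte lineage markers 11 were lower and 2 higher (4442 and 5034 against 3878 to 3995 CPM). Among the NSC markers 5 of 12 were higher and none was lower, and of the proliferation genes 11 of 12 were higher, with sums of 984 and 1135 against 2012 to 2682 CPM. The neuronal list held 2 higher and 1 lower gene among 10. In bulk RNA, fewer cells of a type and less RNA per cell cannot be told apart. Microglial markers summed to at most 1.42 CPM, with *Cx3cr1*, *Tmem119*, *Itgam* and *Trem2* at 0 in all 5 libraries, and endothelial markers to between 4.92 and 7.22 CPM, with *Cdh5* at 0. The mural and fibroblast markers summed to 14.6 and 19.9 CPM in ctrl and to 4.92 to 6.39 in cko NSCs, and each of the 9 in the table had a count in at least 1 library. Most of this sum was *Foxc1* (10.7 and 15.3 CPM in ctrl and 3.25 to 3.86 CPM in cko NSCs), the only one of 3 tested genes on the list that was called lower.

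**Figure D5:**
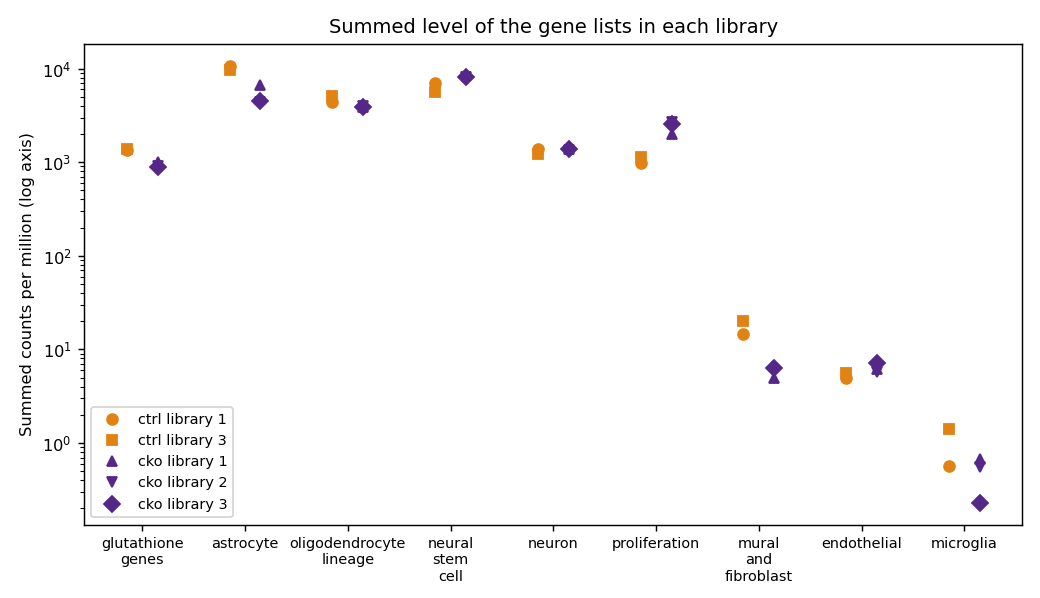
Summed CPM (log axis, relative to library totals) of the 42 glutathione genes and of 8 lists of marker genes in each of the 2 ctrl libraries (orange) and the 3 cko libraries (purple). The glutathione and astrocyte sums were lower in every cko library, the proliferation sum was higher, and the microglial and endothelial sums stayed under 10 CPM in all 5 libraries.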

How the data were processed

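RNA-seq counts of 5 NSC libraries, 2 ctrl and 3 cko, were used. The authors filtered reads with NGSQC, aligned them with HISAT2 to mm10 (the assembly GRCm38) and deposited raw counts per Ensembl gene. The labels list GRCm39 instead. Counting tool, annotation and use of strand are not given in the sources used here, so genes with shared exons or near-identical copies are uncertain. Symbols, positions and exon lengths came from GENCODE M21 (GRCm38), which matched 31829 of 32493 IDs.

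The deposited counts went into edgeR 4.0.16 under R 4.3.3: its filter on low counts by genotype, TMM factors (0.990 to 1.01), the quasi-likelihood test and Benjamini-Hochberg adjustment over 16710 genes. Values are TMM-normalized CPM unless stated. As alternatives, all 6 columns were fitted, each library was left out in turn, the replicate number was a block, the filter was dropped or set to 10 counts per library, and DESeq2 1.42.0 or its size factors were used. Steps were tested on simulated data. Figures were drawn with matplotlib 3.10.9.

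Member genes and lists were chosen with earlier results of these data known. Genes named with values are the called members, a fixed set of key enzymes and, of the antioxidant list, up to 6 called genes per direction with the largest changes; others named are the untested members and, chosen after their values were seen, *Gsto2*, *Gsta3*, *Gstt1*, *Gstm4*, *Gstm7*, *Xist*, *Foxc1* and markers at 0. The identities of near-identical copies were compared as shared 50-base windows of transcripts, not as proteins. Sites of the deleted miRNA were not analysed here.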

Additional observations from a re-analysis of the deposited data

How the results depend on the processing

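Over the alternatives, 3 of the 12 called members kept their call in every one run. With the replicate block, in which cko library 2 has no ctrl partner, no member was higher (0 in place of 1) and 10 were lower. Deviations of log2 CPM from the group mean correlated at 0.179 (replicate 1) and 0.055 (replicate 3) between same-numbered libraries. With 2 ctrl libraries these deviations mirror each other, so the other ctrl library gave the same values with a negative sign. The numbers were not taken to pair the libraries. Leaving out each library moved the lower members between 3 and 11, the higher between 0 and 3, those past the study's threshold between 5 and 9, and the member median between -0.22 and -0.18. For the antioxidant list these ranges were 3 to 17 lower and 0 to 7 higher. The list held 16 lower and 12 higher genes with all 6 columns and 18 and 7 without a filter. The fit of all 6 columns counts the averaged ctrl column as a further library, so its p-values are too small. *Gstz1* turned negative with DESeq2 (-0.0043), other size factors (-0.0038) and at least 10 counts (-0.014). Leaving out libraries gave *Gstz1* between -0.073 and 0.077, *Gpx3* between -0.13 and 0.53, *Gpx7* between -0.044 and 0.36, *Gstcd* between -0.092 and 0.37, *Gstm5* between -0.083 and 0.028 and *Hmox1* between -0.011 and 0.70. The signs of *Gpx3*, *Gpx7*, *Gstcd* and *Hmox1* turned without ctrl library 1, that of *Gstm5* without ctrl library 1 or cko library 3, and that of *Gstz1* without ctrl library 3 or cko library 1 or 2. No called gene reversed in any alternative. The shares of all genes called in the alternatives were not counted, so the moving counts are no result about the members or the list. The design has 2 ctrl libraries, which limits every interval given.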
